A study of Mus musculus with 12 samples.

Results

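The hypoxia-inducible factor (HIF) pathway was followed through 10 genes in bulk RNA-seq of mouse kidney cortex. The 10 genes were taken by symbol from the 55450 genes of the count table, and all 10 had enough counts to be among the 16094 genes tested. They comprise 3 HIF subunits (Hif1a, Epas1 and Arnt), 4 regulators (Egln1, Egln2, Egln3 and Vhl) and 3 target genes (Car9, Bnip3 and Ankrd37). The 12 libraries came from the dissected outer cortex of mice on the FVB/N background, collected at week 12 of age, and fall in 4 groups of 3. Tg26 C16 mice were hemizygous for the HIV-1 transgene and were given C16, and Tg26 mice carried the transgene with no C16. WT C16 mice were wild-type mice given C16, and WT mice were wild-type with no C16. C16, an oxoindole/imidazole inhibitor of the double-stranded RNA sensor PKR, was injected intraperitoneally at 10 µg/kg in DMSO-PBS 3 times a week from week 6 to week 12. The sources used here do not say what the control mice were injected with. Tg26 mice develop a model of HIV-associated nephropathy. The study design asks what the transgene does to the kidney and what PKR inhibition then does in mice of each genotype. Mice of both sexes entered the study, matched between treatment groups, and the labels give no sex for a library. Y-linked transcripts were present in all 12 libraries, so none came from a female alone.

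HIF is a transcription factor made of an oxygen-labile alpha subunit and the stable partner ARNT. In oxygenated cells the prolyl hydroxylases encoded by Egln1, Egln2 and Egln3 mark the alpha subunits, and VHL, the recognition part of a ubiquitin ligase, then has them degraded. When oxygen falls the alpha subunits escape, join ARNT and switch on genes for pH control, mitophagy, glycolysis and vessel growth. Much of this control acts on the protein, so a transcript level of an alpha subunit is not a measure of HIF activity. In the kidney, HIF-1alpha is found mainly in tubular cells, and HIF-2alpha, which Epas1 encodes, mainly in endothelial and interstitial cells. The cortex is rich in proximal tubules, which use much oxygen.

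The HIF dimer binds a short core, ACGTG or GCGTG. The 250 bases before the RefSeq start site (GRCm38.p6) are shown for the 3 members that fell in Tg26 mice, because these are the promoters the main comparison turns on. In GENCODE vM21 (mm10) Car9 spans chr4:43506966-43513729, Bnip3 chr7:138890836-138909519 and Egln1 chr8:124908587-124949324. The windows lie at chr4:43506776-43507025 (+ strand), chr7:138909507-138909756 (- strand) and chr8:124949255-124949504 (- strand). Capitals mark each core on either strand, CACGT and CACGC being the same letters read on the other strand.
Car9 promoter: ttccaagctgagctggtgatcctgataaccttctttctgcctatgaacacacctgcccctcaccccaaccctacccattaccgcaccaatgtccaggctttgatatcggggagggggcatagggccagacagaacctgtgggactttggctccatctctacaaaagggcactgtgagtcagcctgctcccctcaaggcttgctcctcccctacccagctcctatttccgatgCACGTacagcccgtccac
Bnip3 promoter: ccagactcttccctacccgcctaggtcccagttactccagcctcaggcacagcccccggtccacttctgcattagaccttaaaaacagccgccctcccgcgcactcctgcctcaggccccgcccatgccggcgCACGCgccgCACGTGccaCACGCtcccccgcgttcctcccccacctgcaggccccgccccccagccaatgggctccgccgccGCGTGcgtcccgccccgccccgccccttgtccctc
Egln1 promoter: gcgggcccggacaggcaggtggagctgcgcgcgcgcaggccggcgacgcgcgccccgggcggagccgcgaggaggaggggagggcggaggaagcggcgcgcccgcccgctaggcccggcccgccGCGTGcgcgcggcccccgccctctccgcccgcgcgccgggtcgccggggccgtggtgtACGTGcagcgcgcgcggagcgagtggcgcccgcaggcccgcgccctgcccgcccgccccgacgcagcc
Car9 had 1 match, at position -18 from the start site, and Egln1 had 2, at -126 and -68. The GENCODE spans begin upstream of these RefSeq start sites. The Car9 match and the Egln1 match at -68 therefore lie inside the annotated gene. Bnip3 had 5 matches, of which those at -108 and -107 are the same CACGTG read on both strands. Across 32851 RefSeq promoter windows of this length, 38.6% held at least 1 match, 16.7% at least 2 and 1.0% at least 5. The promoter table matched 9 of the 10 members, all but Epas1. Among the other members, the windows held 3 matches for Hif1a, 1 for Arnt, 4 and 1 for the pair of Egln2 start sites, 1 for Egln3, 4 for Ankrd37 and 0 for Vhl. The bases after the start site were found in a GENCODE transcript of the gene for every window but those of Hif1a and Egln3. A match is a description of the letters and no evidence of binding.

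Library totals ran from 19877877 to 27000388 gene counts. Levels are given as CPM, counts scaled to a common library size with TMM factors, and the TMM factor was highest in Tg26 replicate 1, at 1.22, against a range of 0.901 to 1.08 in the others. The quasi-likelihood test of edgeR was fitted over the 4 groups, and calls are at an adjusted p (Benjamini-Hochberg, over the 16094 genes) under 0.05. The labels number the 3 libraries of a group without stating that each is a separate mouse, so p-values measure the spread between these samples, which may be technical. The cortical label fits the markers, since 14 proximal tubule markers summed to 16909 to 33861 CPM in Tg26 mice and to 45362 to 51324 CPM in WT mice. In WT mice 12 macrophage markers summed to 110.4 to 143 CPM.

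Per length of exon, the members spanned a wide range of levels within one tissue. In WT mice Bnip3 was highest, at 96.1 ± 2.95 CPM per kilobase of exon (SD, n = 3). Epas1 followed at 30.2 ± 5.65, Egln2 at 24.4 ± 0.706, Egln1 at 19.4 ± 1.24 and Hif1a at 12.5 ± 1.46 CPM per kilobase. Vhl stood at 6.29 ± 0.540, Arnt at 6.05 ± 0.849, Egln3 at 4.83 ± 0.858, Car9 at 2.33 ± 0.971 and Ankrd37 at 0.687 ± 0.463 CPM per kilobase. The WT libraries of Epas1 and Egln2, of Vhl and Arnt, and of Arnt and Egln3 overlapped, so the order within these pairs is not settled by the spread. Bnip3 was also highest and Ankrd37 lowest by mean in the other 3 groups. Epas1 exceeded Hif1a per length in all 12 libraries, although Car9 and Egln3 changed places by mean between groups. Car9 stood above Egln3 by mean in Tg26 C16 mice, at 2.66 against 2.53 CPM per kilobase, with overlapping libraries. It stood below Egln3 by mean in the other 3 groups, with overlapping libraries in WT C16 mice, so the change of order is not settled by the spread.

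**Figure D1:**
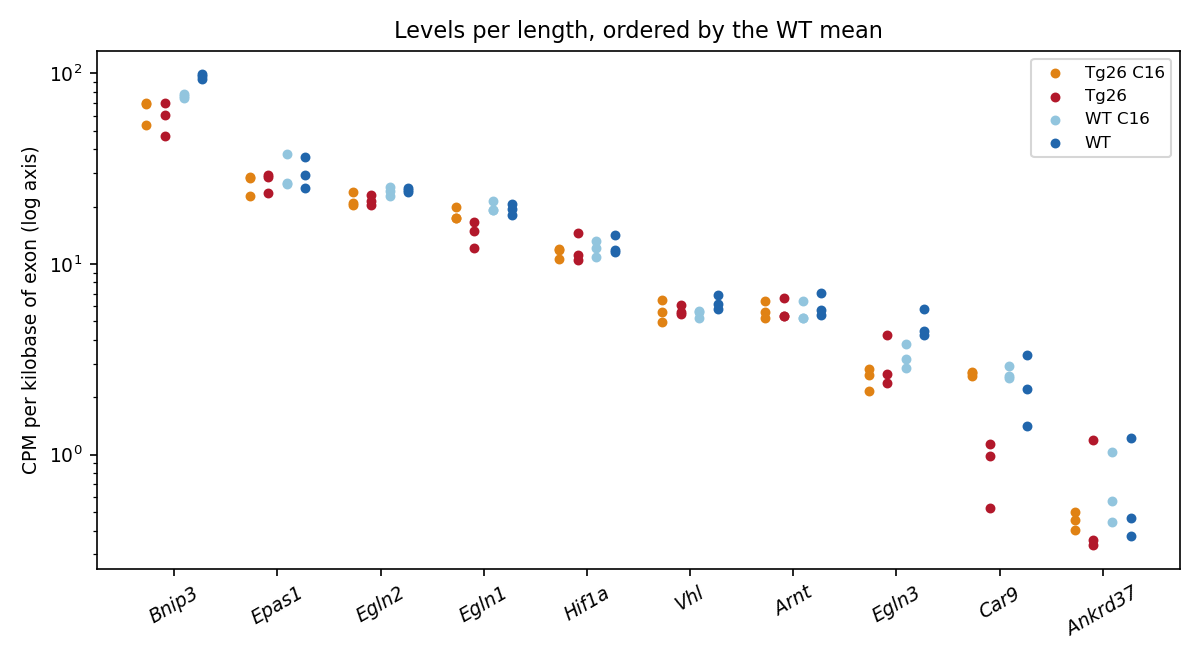
CPM per kilobase of exon (log axis) of the 10 members in each of the 12 libraries, ordered by the WT mean, 3 points per group. Bnip3 lies above all other members in every group and Ankrd37 has the lowest mean. Car9 lies at or below 1.13 in Tg26 mice and at or above 1.42 in every other library. Egln1 in Tg26 mice also lies below its other groups, at or below 16.7 against 17.4 or more.

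In Tg26 against WT mice, 3 of the 10 members were called and all 3 fell: the pH enzyme gene Car9, the mitophagy receptor gene Bnip3 and the oxygen-sensor gene Egln1. No HIF subunit was called. Over all genes tested, 26.2% were called in this comparison, 10.5% as lower in Tg26 mice, so 3 of 10 is close to the share in either direction. The libraries of the groups did not overlap for 4 members (Car9, Bnip3, Egln1 and Egln2), against 39.6% of all genes tested. The median log2 fold change was -0.17 over the members and -0.01 over all genes.

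Car9 encodes carbonic anhydrase 9, a membrane enzyme that hydrates carbon dioxide outside the cell and is a classical HIF target. Car9 measured 1.21, 2.61 and 2.28 CPM in Tg26 mice, against 5.08, 7.73 and 3.28 CPM in WT mice. Every Tg26 library lay below every WT library, and the WT libraries spread widely. The log2 fold change was -1.40 ± 0.31 (SE), with a 95% interval of -2.09 to -0.72 and an adjusted p of 0.00823 (edgeR). Car9 rested on 39 to 183 counts per library, so the level itself carries counting error. The call was lost when the 2 groups were fitted alone (log2 fold change -1.40, adjusted p = 0.0572, edgeR) and with a covariate of Y-linked genes (-1.27, adjusted p = 0.0567, edgeR), with log2 fold changes near the first. The 4 Y-linked genes summed to 113.6 to 170.5 CPM in Tg26 mice, against 150.6 to 190.8 CPM in WT mice. In Tg26 C16 and WT C16 mice they summed to 142.1 to 156.8 and 159.1 to 161.4 CPM. With these genes expressed in every library, the covariate follows their level and cannot separate the sexes. Their part was not tested further.

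Bnip3 encodes an outer mitochondrial membrane protein that draws mitochondria into autophagy and is induced by HIF-1 in many cells. Bnip3 measured 106, 137 and 158 CPM in Tg26 mice, against 224, 211 and 219 CPM in WT mice. The groups did not overlap, and the Tg26 libraries varied more than the WT libraries. The log2 fold change was -0.71 ± 0.14 (95% interval -1.01 to -0.40, adjusted p = 0.00458, edgeR). The call held in all 21 alternatives, with log2 fold changes of -0.84 to -0.41.

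Egln1 encodes PHD2, the main oxygen sensor among the prolyl hydroxylases. It measured 43.6, 59.9 and 53.3 CPM in Tg26 mice, against 74.2, 65.3 and 70.2 CPM in WT mice. Its highest Tg26 library stayed below its lowest WT library. The log2 fold change was -0.42 ± 0.12 (95% interval -0.67 to -0.16, adjusted p = 0.0217, edgeR). This call was not stable, since 7 of 21 alternatives lost it, among them the fit without Tg26 replicate 1 (log2 fold change -0.31, adjusted p = 0.0586, edgeR). It was also lost without WT replicate 1 (-0.37, adjusted p = 0.0691, edgeR) and without WT replicate 3 (-0.42, adjusted p = 0.0535, edgeR), where the log2 fold change moved little.

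Egln3 encodes PHD3, a hydroxylase whose own gene is a HIF target. Egln3 measured 7.07, 6.33 and 11.3 CPM in Tg26 mice, against 15.5, 11.8 and 11.3 CPM in WT mice. One Tg26 library reached the lowest WT library and the other two lay well below it. Its log2 fold change of -0.64 ± 0.22 just missed the threshold (adjusted p = 0.0519, edgeR), and 6 of 21 alternatives called it. Without Tg26 replicate 3, the library at the WT level, it was -0.94 with an adjusted p of 0.00550 (edgeR). Egln2 encodes PHD1, a hydroxylase found largely in the nucleus. It measured 64.5, 59.7 and 56.8 CPM in Tg26 mice, against 70.5, 68.1 and 66.6 CPM in WT mice, groups that did not overlap. Its log2 fold change was -0.18 ± 0.09 (95% interval -0.37 to 0.01, adjusted p = 0.152, edgeR). Vhl measured 16.5, 18.4 and 16.7 CPM in Tg26 mice, against 17.4, 18.5 and 20.6 CPM in WT mice, which overlapped, with a log2 fold change of -0.13 (95% interval -0.38 to 0.11).

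The subunits overlapped between the groups. Hif1a, the alpha subunit of HIF-1, measured 61.9, 65.7 and 85.4 CPM in Tg26 mice, against 68.1, 69.7 and 83.7 CPM in WT mice. Its log2 fold change was -0.06, with a 95% interval of -0.34 to 0.23. Epas1, the alpha subunit of HIF-2, measured 131, 159 and 163 CPM in Tg26 mice, against 139.7, 202 and 164 CPM in WT mice. Its log2 fold change was -0.16, with a 95% interval of -0.54 to 0.22. Arnt, the shared partner, measured 42.7, 42.9 and 53.3 CPM in Tg26 mice, against 43.1, 46.1 and 56.1 CPM in WT mice. Its log2 fold change was -0.07, with a 95% interval of -0.36 to 0.23. These intervals leave room for changes of roughly the size seen for Egln1 in Epas1, and for smaller ones in Hif1a and Arnt. Ankrd37, an ankyrin-repeat gene induced by HIF-1, was near the floor of the measurement. It measured 1.83, 0.516 and 0.552 CPM in Tg26 mice, against 1.88, 0.718 and 0.578 CPM in WT mice, from 12 to 59 counts. A single library stood high in each group, and the 95% interval of the log2 fold change ran from -1.36 to 1.12.

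**Figure D2:**
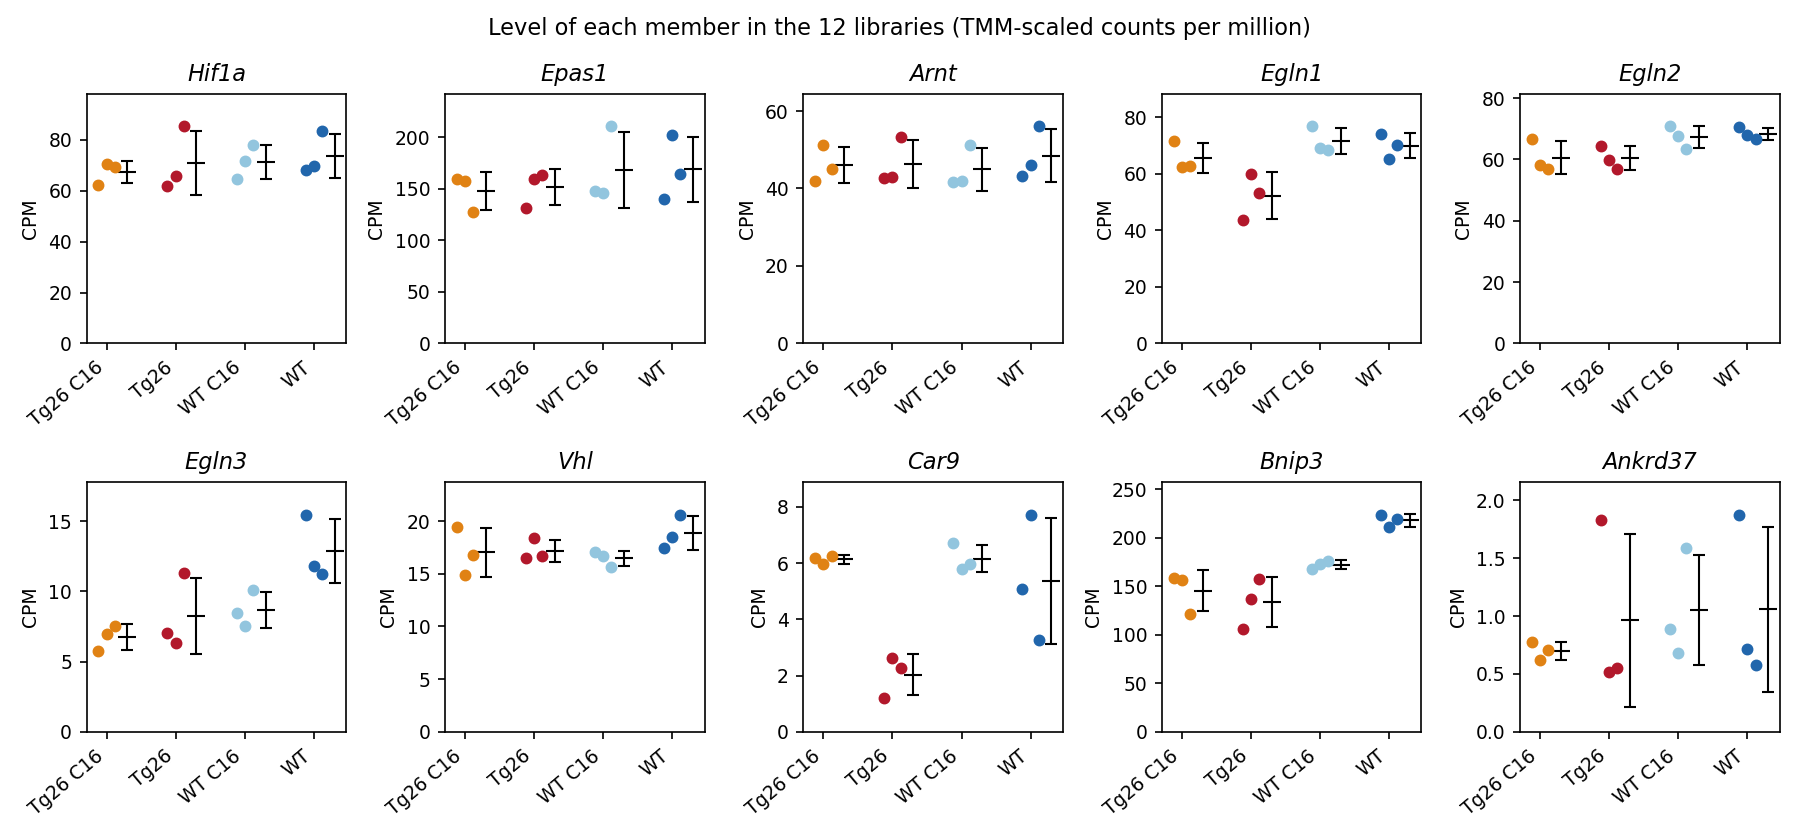
TMM-scaled CPM of each member (vertical axis from 0) in the 12 libraries by group, with the mean and SD (n = 3) in black beside the points. Car9 lies between 1.21 and 2.61 CPM in Tg26 mice and at or above 3.28 CPM in every other library, and Bnip3 is at or above 211 CPM only in WT mice.

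The direction of the small differences depended on the scaling. With library sizes only, the median over all genes in Tg26 against WT mice moved to 0.29, and 6 members then had positive log2 fold changes, from 0.13 for Egln2 to 0.25 for Hif1a. Of the called genes, 95.1% were then higher in Tg26 mice, against 59.9% with TMM. Car9 and Bnip3 stayed called as lower, and Egln1 did not (log2 fold change -0.12, adjusted p = 0.359, edgeR). With TMM, all 10 members were below the median of all genes. The same held with library sizes only, which adds no support, since the change of scaling shifts all genes by nearly the same amount. The members' median relative to that of all genes was -0.155 under both.

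**Figure D3:**
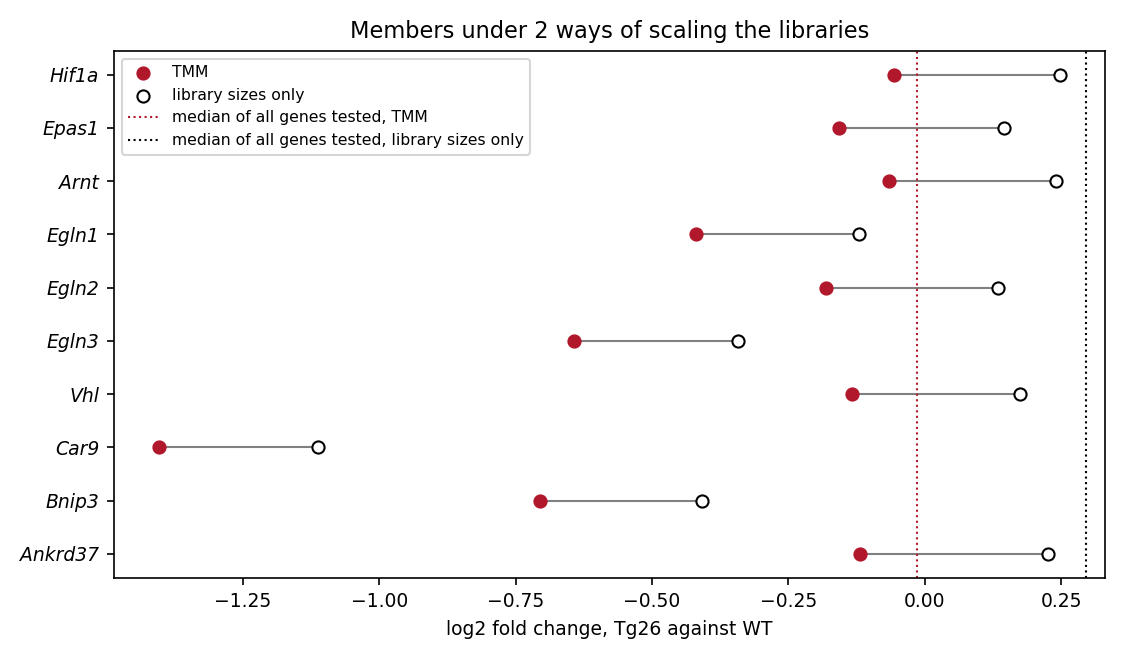
Log2 fold change of each member in Tg26 against WT mice with TMM (filled) and with library sizes only (open); dotted lines mark the median of all genes tested under each. Every member shifts to the right by about the shift of the median, and Car9, Bnip3, Egln1 and Egln3 stay below 0.

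Markers of some cell types moved in the same comparison, and those of others gave few calls. Of 14 proximal tubule markers, 10 fell in Tg26 mice (median log2 fold change -0.67), against 10.5% lower over all genes. All 12 macrophage, all 10 fibroblast and pericyte and all 8 tubular injury markers rose, against 15.7% higher over all genes. Their medians were 2.91, 2.53 and 3.94, against a median of -0.01 over all genes. In either direction, 26.2% of all genes were called. The calls were 0 of 8 collecting duct, 1 of 8 loop of Henle and distal tubule, 1 of 8 podocyte and 2 of 10 endothelial markers. Of the tested lymphocyte, neutrophil and red blood cell markers, 2 of 10, 1 of 4 and 0 of 5 were called. The macrophage markers summed to 775 to 1311 CPM in Tg26 mice. The part of these shifts in the levels of Car9, Bnip3 and Egln1 was not tested. In whole cortex, fewer cells of a type and less RNA per cell cannot be told apart.

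With C16 in Tg26 mice, Car9 was the 1 member called, and it rose. Over all genes, 3.42% were called in this comparison and 0.758% as higher in Tg26 C16 mice. Car9 measured 6.18, 5.96 and 6.26 CPM in Tg26 C16 mice, against 1.21, 2.61 and 2.28 CPM in Tg26 mice. The treated libraries lay close together and all above the untreated ones. The log2 fold change was 1.59 ± 0.31 (95% interval 0.91 to 2.28, adjusted p = 0.0356, edgeR), a 3.02-fold higher level. This call was lost in 10 of 21 alternatives with adjusted p of up to 0.147 (edgeR), while the log2 fold change stayed between 1.32 and 1.82. The lost calls include the fit of these 2 groups alone (adjusted p = 0.136, edgeR) and the fits without Tg26 replicate 1 (log2 fold change 1.32, adjusted p = 0.0860, edgeR), without any one of the 3 Tg26 C16 libraries, and without WT C16 replicate 1 or 2. All 14 proximal tubule markers had positive log2 fold changes in this comparison (median 0.51), 1 of them called. They summed to 35572 to 44865 CPM in Tg26 C16 mice, against 16909 to 33861 CPM in Tg26 mice, and their part in the Car9 level was not tested.

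Car9 shares 214 exon bases with Gm12454, an annotated antisense transcript. The libraries were stranded, but the strand setting of the read assignment is not given in the sources used here. Whether reads of the pair were kept apart in the shared part is therefore not known. Gm12454 measured 2.60, 2.32 and 2.59 CPM in Tg26 C16 mice, against 0.527, 1.34 and 0.920 CPM in Tg26 mice. Its groups did not overlap either (log2 fold change 1.43, adjusted p = 0.0705, edgeR). In WT C16 mice it measured 2.79, 2.69 and 2.10 CPM, against 1.60, 1.73 and 0.482 CPM in WT mice, with an adjusted p of 0.653 (edgeR). In Tg26 against WT mice its log2 fold change was -0.46, with overlapping groups. What Gm12454 contributes to the Car9 counts was not tested.

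Egln1 also did not overlap with C16 in Tg26 mice. It measured 71.7, 62.5 and 62.6 CPM in Tg26 C16 mice, against 43.6, 59.9 and 53.3 CPM in Tg26 mice. The log2 fold change of 0.33 ± 0.12 did not pass (adjusted p = 0.109, edgeR), and without Tg26 replicate 2 it did (0.44, adjusted p = 0.0435, edgeR). Car9 and Egln1 were the 2 members without overlap, against 27.6% of all genes.

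The remaining 8 members overlapped between Tg26 C16 and Tg26 mice. Bnip3 measured 158, 157 and 121 CPM in Tg26 C16 mice, against 106, 137 and 158 CPM in Tg26 mice, a log2 fold change of 0.12 ± 0.14 (95% interval -0.18 to 0.43). The treated libraries thus covered most of the untreated range and none reached a WT library. Egln3 measured 5.73, 6.95 and 7.52 CPM in Tg26 C16 mice, against 7.07, 6.33 and 11.3 CPM in Tg26 mice, with a log2 fold change of -0.29 (95% interval -0.78 to 0.20). Hif1a measured 62.4, 70.6 and 69.4 CPM in Tg26 C16 mice, with a log2 fold change against Tg26 mice of -0.07 (95% interval -0.36 to 0.21). Epas1 measured 159, 157 and 127 CPM, with a log2 fold change of -0.03 (95% interval -0.41 to 0.35). Arnt, Egln2, Vhl and Ankrd37 had log2 fold changes between -0.47 for Ankrd37 and 0.01 for Egln2. The median over the members was -0.01, as it was over all genes.

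**Figure D4:**
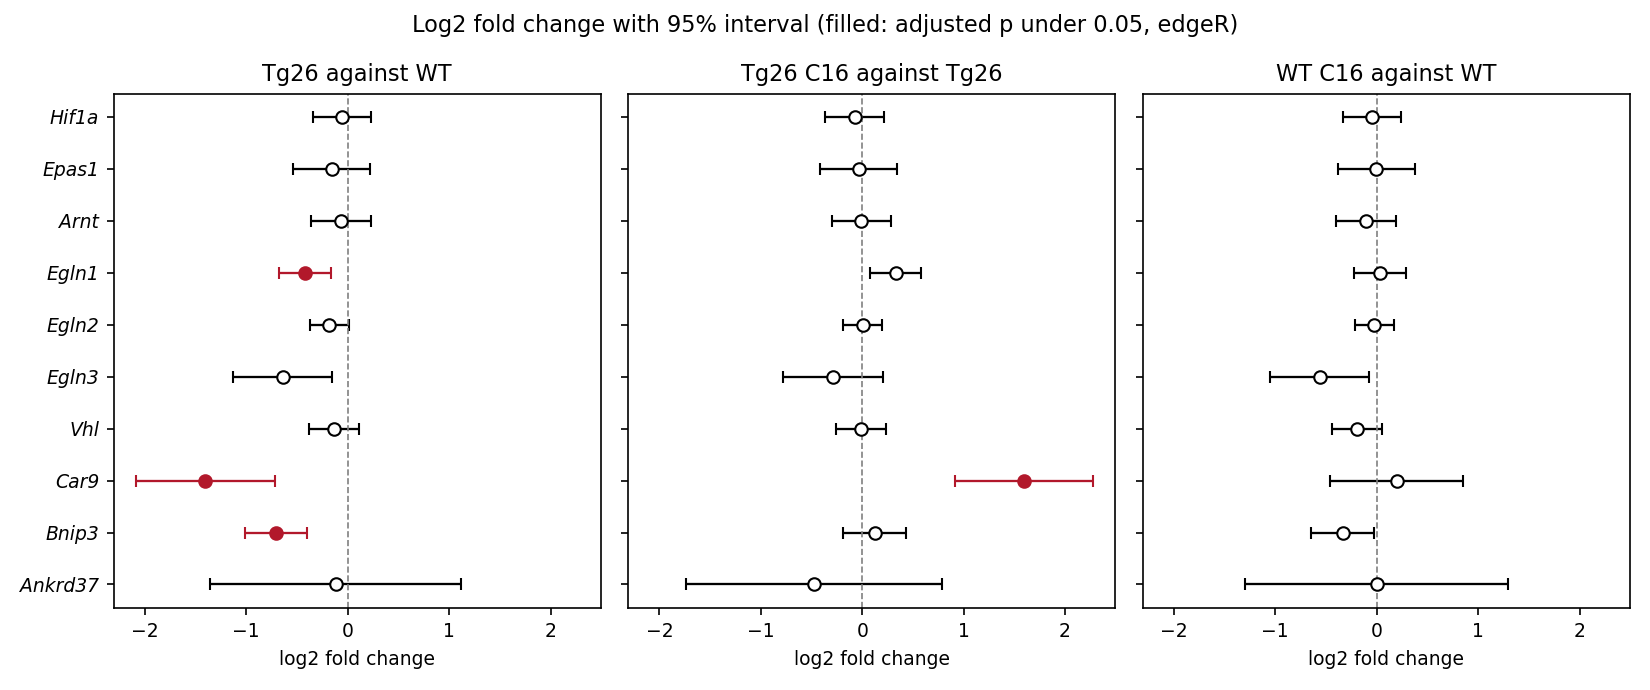
Log2 fold change of the 10 members with 95% intervals in 3 comparisons; filled points passed an adjusted p under 0.05 (edgeR). Car9 is below 0 in Tg26 against WT mice, at -1.40, and above 0 in Tg26 C16 against Tg26 mice, at 1.59, while the subunits' intervals span 0 in all 3 panels.

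Both comparisons above use the same 3 Tg26 libraries, so the opposite signs of Car9 and Egln1 in them are not independent of each other. Set directly against WT mice, Tg26 C16 mice had a Car9 log2 fold change of 0.19 (95% interval -0.46 to 0.85), with overlapping groups. For Egln1 it was -0.09 (95% interval -0.34 to 0.16). Bnip3 and Egln3 had log2 fold changes of -0.58 ± 0.14 (adjusted p = 0.0608, edgeR) and -0.93 ± 0.23 (adjusted p = 0.0614, edgeR) and no overlap between the groups. Neither passed, and each was called in 6 of 21 alternatives, including those without Tg26 replicate 1 and without Tg26 replicate 3. In this comparison 0 of 10 members were called, against 1.59% of all genes, and 2 members did not overlap, against 26.6% of all genes. In Tg26 C16 against WT C16 mice, 0 members were called, against 0.696% of all genes, and Bnip3 and Egln3 did not overlap, against 18.1% of all genes. Their log2 fold changes were -0.25 (95% interval -0.55 to 0.06) and -0.37 (95% interval -0.86 to 0.13).

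In WT mice C16 gave no call, for the members or for any of the 16094 genes tested with edgeR (0% of all genes). At an unadjusted p under 0.05 there were 1199 genes, 2 of them members, and DESeq2 called 34 genes and no member. Bnip3 measured 168, 173 and 176 CPM in WT C16 mice, against 224, 211 and 219 CPM in WT mice. These groups did not overlap and each was tight (log2 fold change -0.34 ± 0.14, adjusted p = 0.653, edgeR). Egln3 measured 8.43, 7.54 and 10.1 CPM in WT C16 mice, against 15.5, 11.8 and 11.3 CPM in WT mice, again without overlap (log2 fold change -0.56 ± 0.22, adjusted p = 0.648, edgeR). Vhl was the third member without overlap, at 17.0, 16.7 and 15.7 CPM in WT C16 mice, against 17.4, 18.5 and 20.6 CPM in WT mice. Its log2 fold change was -0.19 (95% interval -0.44 to 0.05). The background for such separation was 14.6% of all genes. Car9 measured 6.71, 5.80 and 5.98 CPM in WT C16 mice, inside the range of 3.28 to 7.73 CPM in WT mice. Egln1 measured 76.9, 69.2 and 68.6 CPM in WT C16 mice, with a log2 fold change of 0.03 (95% interval -0.22 to 0.29).

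Whether C16 acted differently in the 2 genotypes was tested by the interaction term, which called 0 of the 16094 genes (0%) with edgeR, 2047 having an unadjusted p under 0.05, and 158 genes but no member with DESeq2. Car9 had an interaction log2 value of 1.40 ± 0.43 (95% interval 0.45 to 2.34, adjusted p = 0.289, edgeR). Bnip3 had 0.46 ± 0.20 (adjusted p = 0.376, edgeR) and Egln1 0.29 ± 0.16 (adjusted p = 0.465, edgeR). The call of Car9 in Tg26 mice and its absence in WT mice therefore do not show a difference between the genotypes.

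Across the 12 libraries, Hif1a and Arnt varied together (Pearson r of log2 CPM 0.877), and their deviations from the group means had an r of 0.909. By r over the 12 libraries, the next pairs were Egln1 with Car9 (0.817, and 0.446 within groups) and Egln3 with Bnip3 (0.718, and 0.289 within groups). The Spearman rank correlation of Egln1 with Car9 was lower, at 0.517. Within groups, Hif1a with Egln2 (-0.798), Arnt with Egln2 (-0.736) and Egln1 with Bnip3 (0.597) had values further from 0 than these 2 pairs. Over all genes tested, the 3 with the highest r to Hif1a were Tab2 (0.954), Nbeal1 (0.935) and Tut7 (0.925), and those for Epas1 were Robo2 (0.883), Zc3h3 (0.872) and Exph5 (0.867). Egln1 was most like Rbpms2 (0.980), Rnf11 and Ccdc47 (0.977 each), Car9 most like Tulp3 (0.968), Mtx3 (0.965) and Arhgef39 (0.961), and Bnip3 most like Tecr (0.964), Pgm1 (0.959) and Ppm1a (0.956). All these values share their libraries and scaling factors and are given as a description.

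Other genes of the pathway did not move one way in Tg26 against WT mice. Of 89 genes tested in 5 lists, Egln3 among them, 21 were called (23.6%), against 26.2% of all genes, 10 as higher and 11 as lower. The shares over all genes were 15.7% as higher and 10.5% as lower. Of 23 further regulators and partners tested, 3 fell and 0 rose (median log2 fold change -0.06). They were Os9, a lectin of the endoplasmic reticulum that also binds HIF-1alpha (-0.42), Cul2, the scaffold of the VHL ligase (-0.31), and Sirt1, a deacetylase (-0.52). Hif1an, the asparaginyl hydroxylase of the alpha subunits, had a log2 fold change of 0.13 (adjusted p = 0.286, edgeR). Hif3a, a further alpha subunit, had one of -0.43 (adjusted p = 0.318, edgeR).

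Of 21 targets in glucose uptake and glycolysis, 3 fell and 3 rose (median -0.16), close to the 26.2% called over all genes. The abundant enzymes Pgk1, Gapdh and Tpi1 fell, by 0.47, 0.40 and 0.37 on the log2 scale, and Hk2, Eno2 and Pfkp rose, by 2.80, 1.39 and 0.93. Pgk1 averaged 516 ± 50.9 CPM in Tg26 mice, against 717 ± 25.8 CPM in WT mice (SD, n = 3 each). Hk2, a hexokinase scarce in healthy cortex, averaged 4.76 ± 3.20 CPM in Tg26 mice, against 0.678 ± 0.129 CPM in WT mice. The calls of Hk2 and Pfkp did not hold in all alternatives, Pfkp keeping its call in 8 of 21.

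Of 14 tested targets that act on vessels or are secreted, 5 rose and 1 fell (median 0.18), against 15.7% higher and 10.5% lower over all genes. The vasoconstrictor endothelin 1 (Edn1) rose by 2.95 and the angiopoietin Angpt2 by 1.98 on the log2 scale. Stc2, Cxcr4 and Tgfa rose by 1.60, 1.03 and 0.70. The vascular growth factor Vegfa fell (log2 fold change -0.63, adjusted p = 0.0240, edgeR), averaging 158.7 ± 45.0 CPM in Tg26 mice, against 245 ± 8.25 CPM in WT mice. Edn1 averaged 11.8 ± 7.56 CPM in Tg26 mice, against 1.52 ± 0.0942 CPM in WT mice. Epo, the hormone of red cell production and a HIF-2 target, had too few counts to be tested.

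Of 6 targets that modify collagen and matrix, 2 rose and 4 were not called (median 0.21), against 15.7% higher over all genes. The crosslinking enzymes Lox and Loxl2 rose, by 2.38 and 1.95, beside the 10 of 10 fibroblast and pericyte markers that rose. Of 25 tested targets in cell stress, iron, pH and mitochondria, a list that also holds Egln3, 4 fell and 0 rose (median -0.17), against 10.5% lower over all genes. They were the transferrin receptor Tfrc (-1.07), the lipoprotein receptor Vldlr (-0.59), the MYC antagonist Mxi1 (-0.45) and the sterol regulator Insig2 (-0.29), whose value with library sizes only was 0.01. With C16 in Tg26 mice, 2 of the 89 genes were called (2.25%), both as lower, against 3.42% of all genes called and 2.66% as lower. The list medians were -0.29 for glucose uptake and glycolysis, -0.33 for vessels and secreted factors and -0.39 for matrix. They were -0.11 for stress, iron, pH and mitochondria and -0.01 for further regulators, against -0.01 over all genes. In that order, 6 of 21, 3 of 14, 1 of 6, 10 of 25 and 10 of 23 genes were positive. The lists were not tested as sets. Edn1 fell by 2.02 (adjusted p = 0.0320, edgeR) and the collagen hydroxylase P4ha2 by 0.60 (adjusted p = 0.0416, edgeR), calls that held in 14 and 9 of 21 alternatives. The summed macrophage markers in these groups were 306 to 631 CPM in Tg26 C16 mice and 775 to 1311 CPM in Tg26 mice, and their part in these values was not tested. No gene of these lists was called with C16 in WT mice. There the medians, in the same order of lists, were -0.16, -0.09, -0.12, -0.009 and 0.02, against -0.005 over all genes. Of the glucose uptake and glycolysis list, 3 of 21 genes were positive in that comparison.

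**Figure D5:**
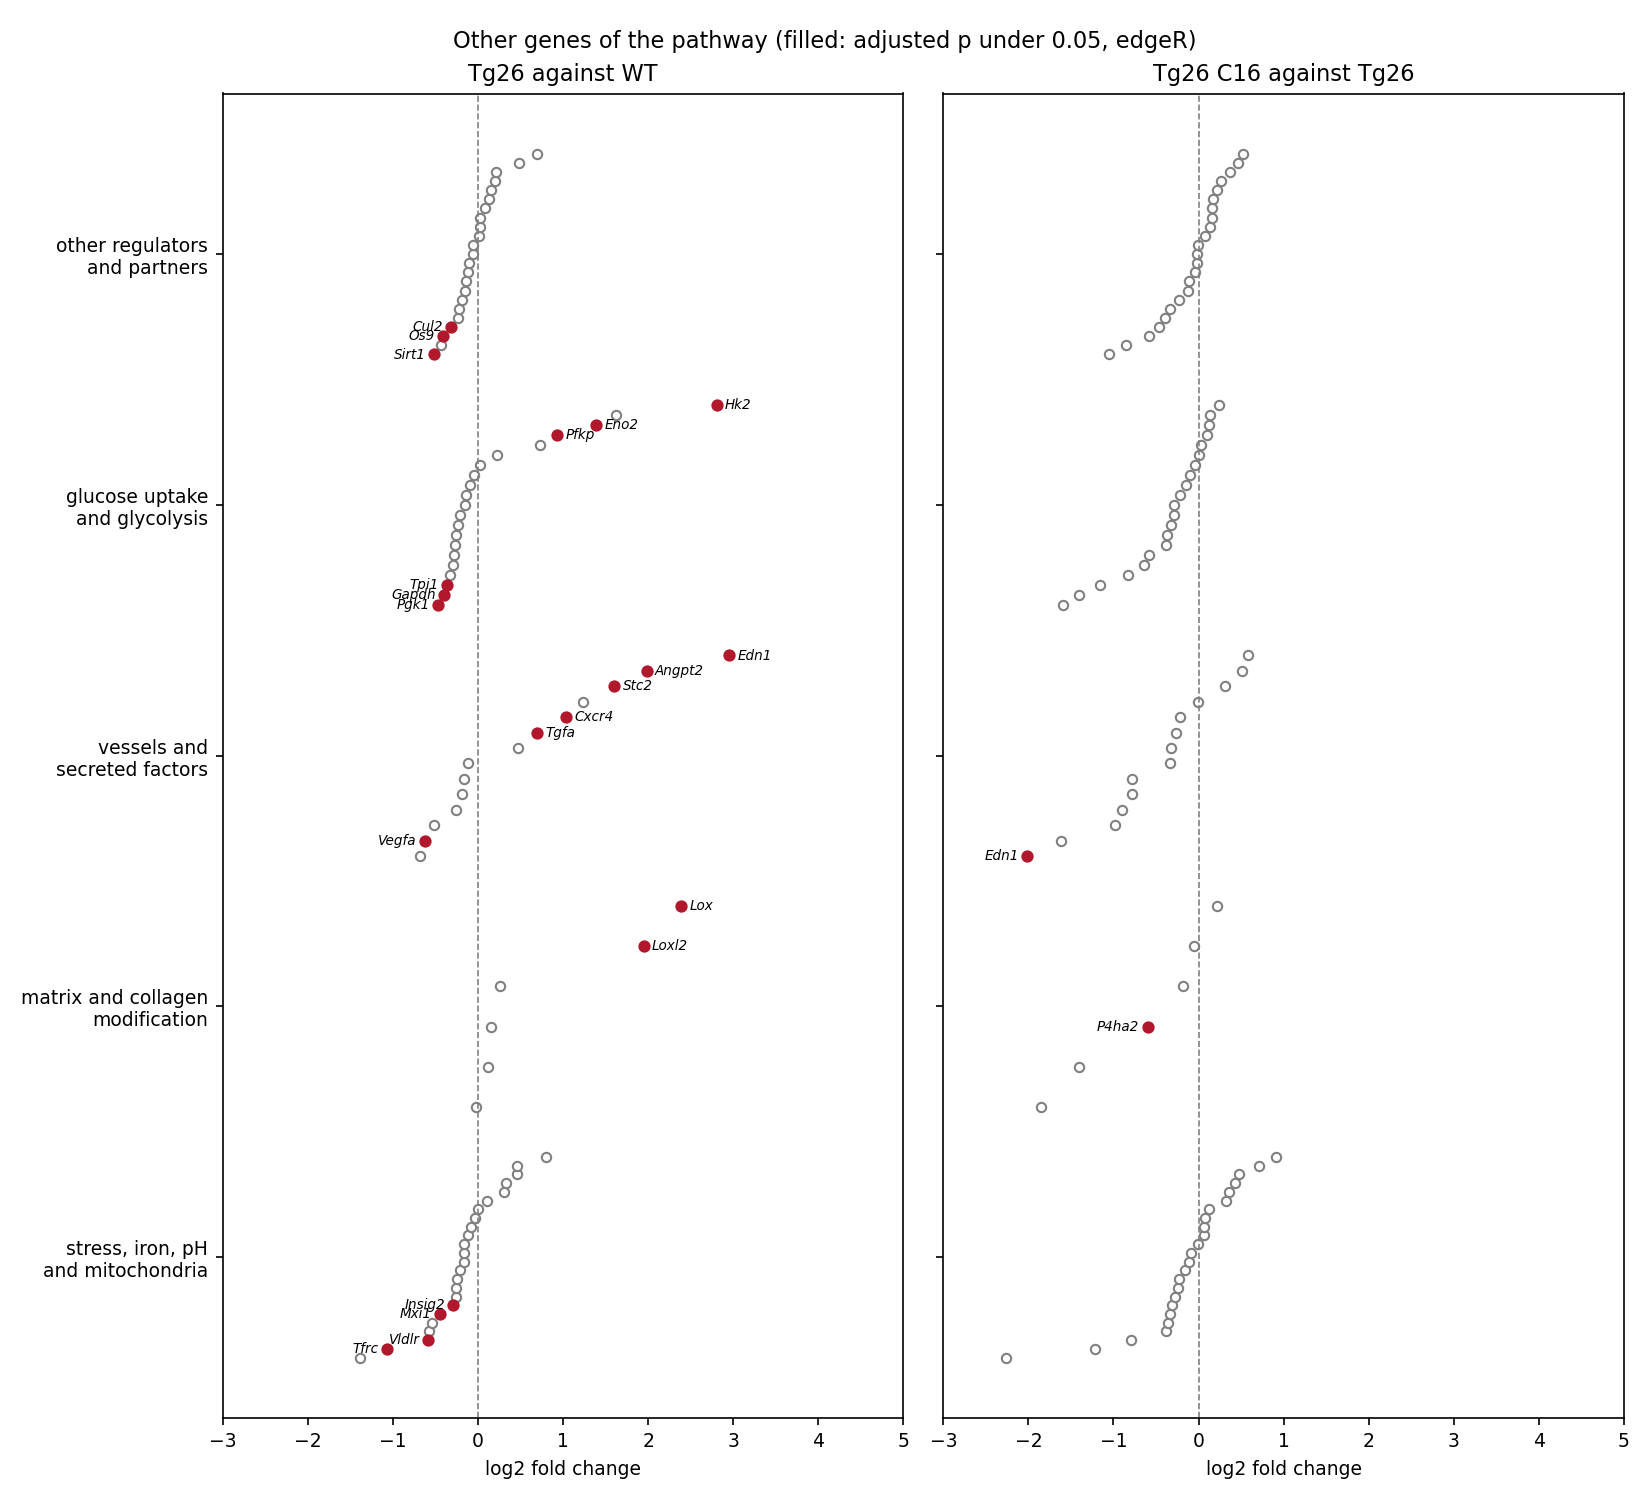
Log2 fold change of the further HIF regulators and target genes in Tg26 against WT and in Tg26 C16 against Tg26 mice, 1 point per tested gene by list; filled, named points passed an adjusted p under 0.05 (edgeR). The calls in Tg26 mice lie on both sides of 0, up to 2.95 for Edn1, and the 2 calls with C16 lie below 0.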

How the data were processed

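Bulk RNA-seq of mouse kidney cortex (12 libraries) was used. Per the labels and the study's methods, TruSeq stranded mRNA libraries were read as paired ends of 101 bases, and the authors demultiplexed with bcl2fastq (2.17), trimmed with cutadapt (1.18), aligned to mm10 with STAR (2.7.0f) and assigned reads to Ensembl 96 genes with RSEM (1.3.1). The deposited values are RSEM expected counts, not normalized and already whole numbers, so rounding changed none.

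All 55450 gene IDs matched GENCODE vM21, from which exon lengths and overlaps were taken. Genes were kept by filterByExpr (near 10 counts in 3 or more libraries, 15 in total), scaled by TMM and tested with edgeR (4.0.16, R 4.3.3) over the 4 groups without covariates. Log2 CPM carries a prior count of 2, and standard errors are the absolute log2 fold change over the root of F. Sequence copies were searched with BLAST (2.17.0), and figures drawn with matplotlib (3.10.9). Bnip3 has 3 near copies (at least 95% identity over 80%) with at most 3 counts each, and other genes sharing exon bases with Hif1a or Bnip3 had at most 4. Ankrd37 (12 to 59 counts) shares 57 bases with Ufsp2 (792 to 1195 counts) and 349 with Lrp2bp (2 to 14 counts). The fit was also run on simulated counts.

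Alternatives were DESeq2 (1.42.0), limma-voom with quality weights (limma 3.58.1), RLE factors, library sizes only, no filter, a stricter filter (CPM of at least 1 in 3 libraries), a replicate block, a Y-linked covariate, the 2 groups alone, and leaving out each library. No library duplicated another of its group, and the check covered pairs within a group only. The members and gene lists were chosen with earlier results of these data known. All 10 members are named, and from each further list at most 4 called genes with the smallest adjusted p plus any called in the other direction; Tgfa, Gapdh, Pfkp, Hif1an, Hif3a and Epo were named after their values were seen. 1 gene of the list on vessels is not reported here and is left out of its counts. Marker lists are given as counts, medians and sums.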

Additional observations from a re-analysis of the deposited data

How the results depend on the processing

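Counting error is a limit for Car9 (39 to 183 counts) and Ankrd37 (12 to 59), and 3 libraries per group give wide intervals for every member. Of 690 alternative fold changes of members, 612 kept their direction and their side of the threshold, 40 changed sign, 19 lost a call and 19 gained one, and each of the 40 concerned a member without a call. The cause of these shifts was not tested.

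In Tg26 against WT mice, library sizes only gave positive log2 fold changes for Hif1a (0.25), Epas1 (0.15), Arnt (0.24), Egln2 (0.13), Vhl (0.18) and Ankrd37 (0.23), and the Y-linked covariate did so for Hif1a (0.13), Epas1 (0.014) and Arnt (0.11). Leaving out each library gave -0.21 to 0.044 for Hif1a, -0.18 to 0.053 for Arnt and -0.99 to 0.58 for Ankrd37. The Y-linked covariate called 1672 genes and 1 member, the 2 groups alone 2033 genes and 1 member, and leaving out each library 2455 to 4791 genes and 2 to 4 members.

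In Tg26 C16 against Tg26 mice, limma-voom turned Arnt (0.056) and Ankrd37 (0.18), library sizes only Egln2 (-0.13) and Bnip3 (-0.0062), and the Y-linked covariate Ankrd37 (0.26). Leaving out each library gave -0.16 to 0.080 for Hif1a, -0.13 to 0.064 for Epas1, -0.091 to 0.11 for Arnt, -0.068 to 0.057 for Egln2, -0.45 to 0.0083 for Egln3, -0.12 to 0.073 for Vhl, -0.017 to 0.26 for Bnip3 and -0.77 to 0.39 for Ankrd37. DESeq2 called 1959 genes, no filter 1104, the Y-linked covariate 94 and the 2 groups alone 0, and leaving out each library 0 to 1505. The members called were 0 with limma-voom, the Y-linked covariate or the 2 groups alone, and 0 to 2 without a library. Library sizes only left 9.88% of the calls as higher, against 22.2% with TMM.

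In WT C16 against WT mice, DESeq2 called 34 genes, limma-voom 43, no filter 2 and the 2 groups alone 1, and Egln1 ran from -0.021 to 0.079 without a library. In Tg26 C16 against WT mice, DESeq2 called 873 genes, limma-voom 1796, library sizes only 505, no filter 531 and the 2 groups alone 446, with 28 to 849 without a library. The members called were 2 (Egln3 and Bnip3) with DESeq2, limma-voom, no filter and the 2 groups alone, and 0 to 2 without a library. Egln1 was 0.082 with library sizes only, which left 96.04% of the calls as higher against 85.2% with TMM, and Car9 ran from -0.063 to 0.55 without a library. In Tg26 C16 against WT C16 mice, DESeq2 called 379 genes, limma-voom 349, no filter 274 and the 2 groups alone 62, with 11 to 300 without a library. The interaction called 158 genes with DESeq2, 2 with limma-voom and 6 with no filter.

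Correlations between libraries with the same replicate number ran from -0.23 to 0.23, and 2 of 12 libraries correlated best with their own number. The highest, 0.20 to 0.23, were among the replicate 1 libraries of WT, WT C16 and Tg26 C16 mice. These values show no pairing by number across the 4 groups, but with 3 libraries per group they cannot exclude it. With the replicate block, 0 genes and 0 members were called in Tg26 C16 against Tg26 mice, 152 genes in Tg26 C16 against WT mice and 40 in Tg26 C16 against WT C16 mice.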
